A study of Caenorhabditis elegans with 3 samples.

Results

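The genes described here are the 3 yolk protein (vitellogenin) genes vit-2, vit-5 and vit-6 and the yolk receptor gene rme-2 of Caenorhabditis elegans, a nematode worm. They are the listed members whose probe carried their symbol and no other, 4 genes of 15092 tested. RNA of adult hermaphrodites, which the submitters list under the unexplained code TP09, was compared on 3 two-colour arrays with a mixed reference RNA of wild-type worms. Each array held 1 adult RNA prep in channel 2 and the reference in channel 1, and the 3 preps are the replicates of the single adult group. The labels give neither strain, genotype, age in days nor culture conditions of the adults, and they do not give the make-up of the reference beyond wild type and mixed. Separate cultures for the preps are not stated either, so the spread between arrays may be technical. The labels put a different date on each array, so array and date cannot be told apart.

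Vitellogenins are large lipid-carrying proteins that the intestine of the adult hermaphrodite makes and secretes into the body cavity as yolk. Growing oocytes take the yolk up by endocytosis through RME-2, a receptor of the low-density lipoprotein (LDL) receptor family that sits on the oocyte surface. The yolk protein genes and the receptor gene are thus read in different tissues, the intestine and the germ line, and both were measured here in RNA of whole worms. In such RNA, a change in the number of cells of a type and a change in RNA per cell cannot be told apart.

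Each value is a log2 ratio, adult over reference, centred on the median probe of each array, so that 0 is the median probe and 1 is a doubling relative to it. The direction is not stated in the labels. The sample descriptions name the adult prep first and the reference second, while the channel numbers run the other way; on the descriptions alone, ratios were read as adult over reference, which is likely but not certain, and with the opposite direction every sign given here would turn. Each array gave values for 19807 to 19899 of 20000 probes, and replicate 1 stood apart from the other arrays. Across genes, which are not independent replicates, it correlated with replicates 2 and 3 at r = 0.82 and 0.85, against 0.92 between those, and limma's array weights gave it 0.372, against 1.03 and 2.6. In 32 consecutive runs of rows of the table, its run medians lay between -0.48 and 0.52, against -0.17 to 0.18 on replicate 2 and -0.17 to 0.17 on replicate 3. Spot intensities were not used here, and the number of arrays limits the precision.

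Of the 4 genes, rme-2 and vit-2 were higher in adults, relative to the mixed reference, and vit-5 and vit-6 did not pass the test. The mean ratios were 4.91-fold for rme-2 and 2.05-fold for vit-2. They were 1.04-fold for vit-6 and 0.962-fold for vit-5, both near that of the median probe. By limma with Benjamini-Hochberg adjustment over all 15092 genes, 2 of the 4 genes were thus called higher, and none lower (count 0), beside 20.9% of all genes called higher, 23.5% called lower and 44.4% called in either direction. The genes of the yolk proteins did not share a sign across the arrays: vit-2 was above 0 on all 3 arrays, while vit-5 and vit-6 lay on both sides of it.

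**Figure D1:**
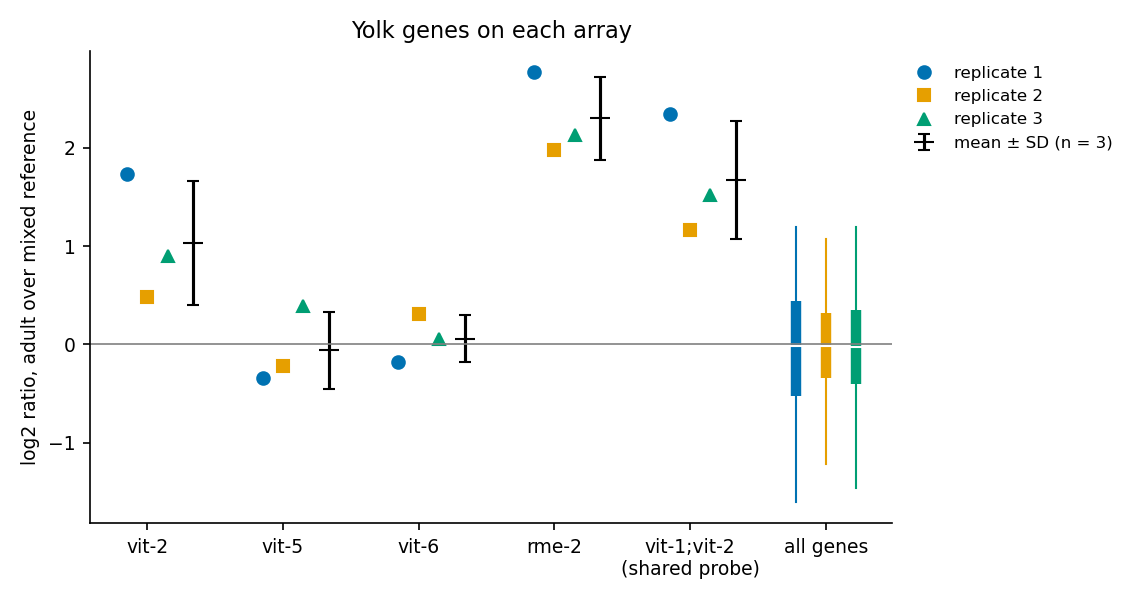
The log2 ratio of adult over mixed reference (vertical axis) is plotted for each yolk gene and for a probe shared by vit-1 and vit-2. Coloured points are the 3 arrays, black bars the mean ± SD over n = 3 arrays, and at the right each array's thick and thin bars span the middle 50% and 90% of all 15092 genes, with the median in white. The rme-2 points lie between 1.98 and 2.77, the vit-2 points between 0.48 and 1.73, and the vit-5 and vit-6 points on both sides of 0.

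The gene vit-2 (C42D8.2) encodes one of the large yolk polypeptides. Its log2 ratio was 1.73 on replicate 1, 0.48 on replicate 2 and 0.90 on replicate 3, which are ratios of 3.31, 1.39 and 1.86. The mean was 1.03 ± 0.63 (SD, n = 3), with a 95% interval from limma's moderated error of 0.51 to 1.56 and an adjusted p of 0.00776 by limma. All arrays were above 0, but the highest stood 1.25 above the lowest, and the SD of vit-2 was larger than that of 96.8% of the genes tested. Among all genes, vit-2 was at percentile 98.8 of the ratios on replicate 1, at 81.6 on replicate 2 and at 90.1 on replicate 3. The call held without each array in turn, with means of 0.69 to 1.31 and adjusted p of 0.000419 to 0.00707 by limma. It ended when the ratio was tested against a 1.5-fold change in place of no change (adjusted p = 0.213, limma's treat).

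A second probe reads this part of the family, but the annotation gives it the symbols of vit-1 and vit-2 together, so it is no measure of vit-2 alone and entered no test. The gene vit-1 encodes a yolk protein close in sequence to that of vit-2. The shared probe stood at 2.34, 1.16 and 1.52 on replicates 1 to 3, with a mean of 1.67 ± 0.60 (SD, n = 3), or 3.19-fold. The order of the arrays was that of vit-2, with replicate 1 highest and replicate 2 lowest. On the arrays in turn, the vit-2 probe lay below the shared probe by a similar amount each time, with differences of -0.61, -0.68 and -0.62 and a mean of -0.64 ± 0.04 (SD, n = 3). The spread of vit-2 between arrays was therefore present at a second spot, to within an SD of 0.04, although the sizes of the ratios at the 2 probes differed. Whether vit-1 itself differed from the reference was not tested.

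The gene vit-5 (C04F6.1) encodes another of the large yolk polypeptides, with vit-3 and vit-4 as its nearest relatives in the family. Its log2 ratio was -0.34, -0.22 and 0.39 on replicates 1 to 3. Replicates 1 and 2 were below 0 and replicate 3 was above it. The mean was -0.06 ± 0.39 (SD, n = 3; adjusted p = 0.815 by limma). The 95% interval of -0.45 to 0.34 leaves room for ratios from 0.732-fold to 1.26-fold, so a small difference either way could not be detected with these arrays.

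The gene vit-6 (K07H8.6) encodes the precursor that is cut into the smaller yolk polypeptides, and unlike the other vitellogenin genes it does not lie on the X chromosome. Its log2 ratio was -0.18, 0.31 and 0.06 on replicates 1 to 3, below 0 on replicate 1 and above it on the other two. The mean was 0.06 ± 0.24 (SD, n = 3; adjusted p = 0.753 by limma), with a 95% interval of -0.27 to 0.39, or 0.832-fold to 1.31-fold. Its SD was near the middle of all genes, at percentile 57.9, against 83.9 for vit-5. The signs of the means of vit-5 and vit-6 are not settled: without replicate 1 vit-5 stood at 0.09, and without replicate 2 vit-5 stood at 0.03 and vit-6 at -0.06.

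The receptor gene rme-2 (T11F8.3) had the highest ratio of the 4 genes on every array. Its log2 ratio was 2.77, 1.98 and 2.13 on replicates 1 to 3, or 6.84-fold, 3.95-fold and 4.39-fold. The mean was 2.30 ± 0.42 (SD, n = 3), with a 95% interval of 1.89 to 2.70 and an adjusted p of 9.55e-05 by limma. It ranked 28 among the 15092 mean ratios and lay at percentiles 99.9, 99.7 and 99.6 on the arrays. With the sign turned it would rank 28 from the lowest, at percentiles 0.1, 0.3 and 0.4. The call held under every alternative that kept the sign, with means between 2.06 and 2.45, including the test against a 1.5-fold change (adjusted p = 0.000463 by limma's treat). As with vit-2, replicate 1 was highest. On that array the run of rows that holds the rme-2 probe had a median of 0.35, and relative to its run the rme-2 value was 2.43 on replicate 1, 1.86 on replicate 2 and 1.98 on replicate 3. The corresponding run medians for vit-2 were -0.01, -0.10 and -0.13, so its high value on replicate 1 was as large relative to its run, at 1.74.

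Ranked by mean ratio, the order was rme-2, vit-2, vit-6 and vit-5, or the reverse with the sign of every ratio turned (-2.30, -1.03, -0.06 and 0.06). The within-array differences describe how far apart neighbours in that order lay. A difference of 2 log2 ratios within an array does not depend on the median subtracted from that whole array, but centring by runs of rows shifts it. It compares changes against the reference, not transcript levels. The receptor gene exceeded vit-2 by 1.05, 1.5 and 1.24 on replicates 1 to 3, a mean of 1.26 ± 0.23 (SD, n = 3). With arrays centred on their medians, this was the steadiest of the differences that kept 1 sign. Its mean was 0.98 with centring by 32 runs of rows. In that setting vit-2 minus vit-6 and vit-2 minus vit-5 stood at 1.19 each, and vit-6 minus vit-5 at 0.01. The gene vit-2 exceeded vit-6 by 1.91, 0.17 and 0.83, a mean of 0.97 ± 0.88, and it exceeded vit-5 by 2.07, 0.70 and 0.51, a mean of 1.09 ± 0.85 (SD, n = 3 each). Both differences were above 0 on all arrays, but replicate 1 contributed most: without it they stood at 0.50 and 0.60. The difference of vit-6 and vit-5 was 0.16, 0.53 and -0.33, with a mean of 0.12 ± 0.43 (SD, n = 3), so its sign was not the same on all arrays. With 3 arrays, the exact two-sided sign-flip permutation test cannot go below p = 0.25, so it could not show that any pair separates. That smallest p was reached by 5 of the 6 pairs (adjusted p = 0.30 over the 6 pairs, exact test), and p was 0.75 for vit-6 against vit-5 (exact test).

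**Figure D2:**
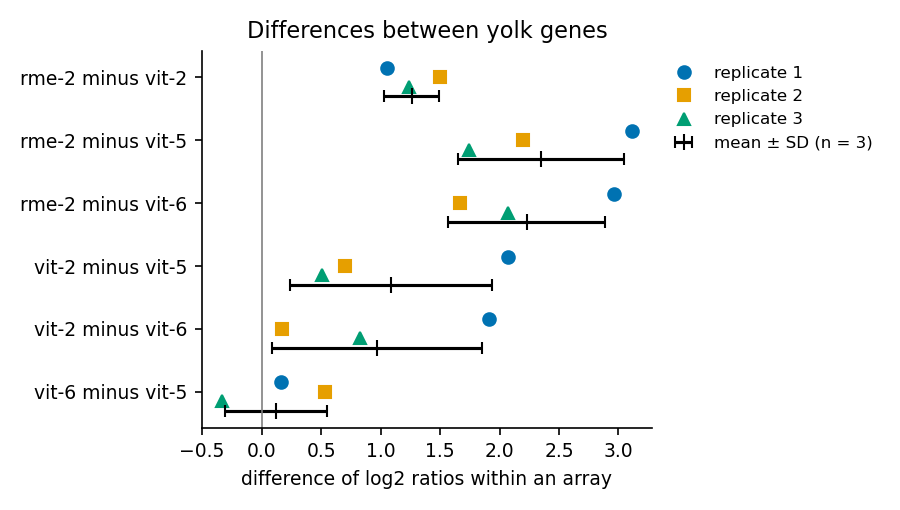
The difference of the log2 ratios of 2 yolk genes within each array (horizontal axis) is plotted for the 6 pairs, with a point for each array and black bars for the mean ± SD over n = 3 arrays. With arrays centred on their medians, the 3 differences with rme-2 lie at 1.05 or above on every array. The difference vit-6 minus vit-5 runs from -0.33 to 0.53.

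Of the 6 vitellogenin genes in the RefSeq annotation of WBcel235, only these 3 had a probe of their own. The gene vit-1 was listed solely on the probe shared with vit-2, and vit-3 and vit-4, which are neighbouring protein-coding genes on the same chromosome, had none in the probe annotation used. Vitellogenin transcripts are similar within the family, so the vit-2 and vit-5 probes may also read their relatives, which was not tested here. No sequence of a probe, promoter or protein was used.

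The genes nearest to each yolk gene were taken by the root mean square difference of their log2 ratios over the 3 arrays. Nearest to rme-2 were bcf-1 (F57F4.4) at 0.04, pgl-1 at 0.14 and cgh-1 at 0.21, with mean ratios of 2.32, 2.18 and 2.29. These 3 were the only genes within 0.25 of rme-2 by this measure. Nearest to vit-2 were ZK632.2 at 0.11, K09C6.9 at 0.11 and rict-1 at 0.15, of 31 genes within 0.25. The mean of ZK632.2 was 0.95, and 0.59 without replicate 1. The gene vit-5 had 567 genes within 0.25, led by ptr-24, bath-9 and srt-13 at 0.09 each. For vit-6 the number was 2013, led by C40A11.8 at 0.02 and by etfm-1 and C10A4.4 at 0.03 each. Because rme-2 ranked 28 among the 15092 mean ratios, few genes could lie within a fixed distance of it. Likeness over 3 arrays is of little discrimination around vit-5 and vit-6, whose means are near that of the median probe.

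Marker genes of the tissues concerned were set beside the 4 genes. The lists here and below were chosen with earlier results of these data known. Their shares beside those of all genes are therefore descriptive and no independent support. Of 16 oocyte and maternal germline markers measured, 15 were higher in adults and cpg-2, a chondroitin proteoglycan gene of the eggshell, was at 0.16 (adjusted p = 0.471, limma), a share of 93.8% called, beside 20.9% of all genes called higher. The lack of a call for cpg-2 rests on replicate 1: without it the gene stood at 0.36 (adjusted p = 0.0423, limma), and without replicate 3 at 0.02. The list median was 1.64, 1.32 and 1.47 on replicates 1 to 3, against -0.02, -0.02 and -0.03 for all genes. The markers with the largest ratios were the eggshell gene cbd-1 at 2.21 ± 0.11, the translational repressor gene gld-1 at 2.08 ± 0.19 and the eggshell proteoglycan gene cpg-1 at 2.05 ± 0.16 (SD, n = 3 each). The oocyte maturation gene oma-1 stood at 1.54 ± 0.24. The mean of rme-2 lay above all of these markers, and the part that the amount of oocyte RNA in the preps has in its ratio was not tested.

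Intestine markers, by contrast, went both ways. Of the 18 with values, 7 were called higher and 8 lower, and 3 did not pass (83.3% called, beside 44.4% of all genes), with list medians of -0.01, 0.34 and 0.29 on replicates 1 to 3. The largest ratios in size were those of the metallothionein gene mtl-1 at -2.94 ± 0.68, the ferritin gene ftn-1 at -1.96 ± 0.37 and the fatty acid desaturase gene fat-7 at -1.32 ± 0.23 (SD, n = 3 each). On the higher side stood the intestinal acid phosphatase gene pho-1 at 1.10 ± 0.39 and the proton pump gene vha-6 at 0.90 ± 0.24. The 3 yolk protein genes lay within the range of these markers, which ran from -2.94 to 1.10. That range, from rank 15029 for mtl-1 to rank 774 for pho-1 of the 15092 mean ratios, holds most genes. Lying within it therefore does not liken the yolk protein genes to intestine genes. The genes vit-2 and pho-1 were close in mean ratio but differed in their order over the arrays, since pho-1 was lowest on replicate 1 at 0.71 and highest on replicate 3 at 1.48.

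Among markers of sperm and of larval moulting, none was called higher (count 0). Of 11 sperm markers, 4 were lower and 7 did not pass (36.4% called lower, beside 23.5% of all genes), with medians of -0.70, -0.33 and -0.12. The major sperm protein genes msp-3 and msp-10, close copies whose probes can share signal, stood at -0.79 ± 0.43 and -0.74 ± 0.34, and spe-11, a gene for a paternal factor carried by sperm, at -0.61 ± 0.76 (adjusted p = 0.0969, limma). The value of spe-11 depended on the arrays used: it was -0.18 without replicate 1 (adjusted p = 0.307), -0.75 without replicate 2 (adjusted p = 0.046) and -0.90 without replicate 3 (adjusted p = 0.0109, limma). Of 12 moulting markers of larvae, 7 were lower and 5 did not pass (58.3% called lower, beside 23.5% of all genes), with medians of -0.73, -0.92 and -0.55. Those with the largest ratios in size were grl-7 at -3.01 ± 0.37, ptr-4 at -1.74 ± 0.63 and mlt-10 at -1.53 ± 0.41 (SD, n = 3 each). How much larval, male or sperm RNA the reference or the adult preps held, and its part in the ratios of the yolk genes, was not tested.

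**Figure D3:**
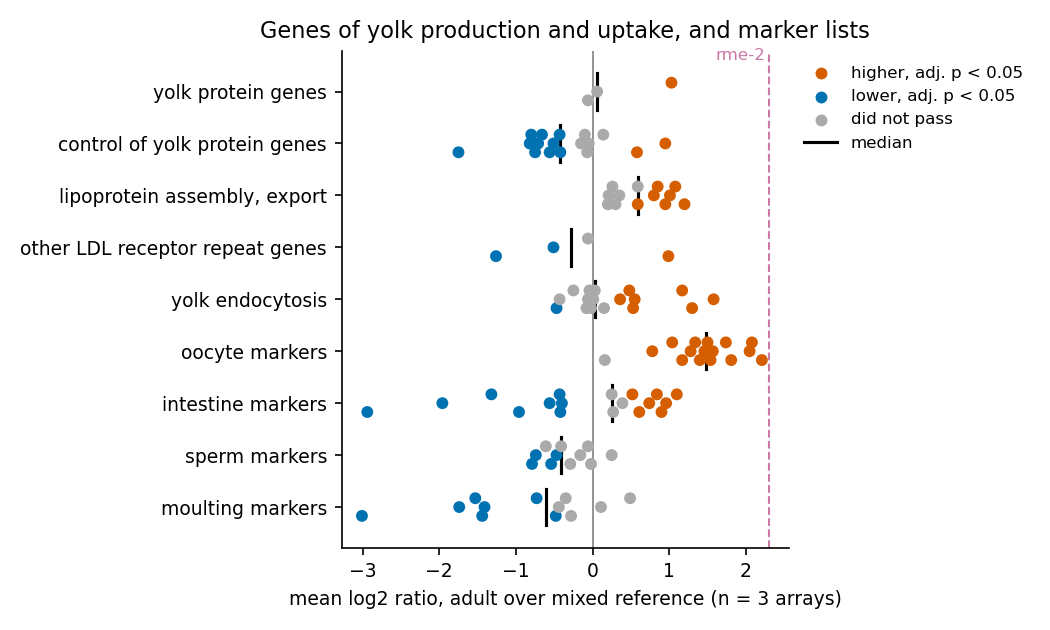
Each point is the mean log2 ratio of adult over mixed reference (horizontal axis, n = 3 arrays) of a measured gene in the lists named at the left, coloured by the limma call, with black bars at the list medians. The dashed line marks rme-2 at 2.30, above every plotted gene; oocyte markers lie on the higher side, while yolk protein and intestine genes fall on both sides of 0.

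Among genes known to control vitellogenin transcription, more were called lower than higher, and the list does not separate activators from repressors. Of the 17 with values, 10 were called lower and 2 higher, and 5 did not pass. Of all genes, 23.5% were called lower and 20.9% higher. The share called in either direction was 70.6%, beside 44.4% of all genes. Medians were -0.33, -0.43 and -0.52 on replicates 1 to 3. Without replicate 3, 7 genes of this list were called, while calls over all 15092 genes fell from 6698 to 4954. The members with the largest ratios in size were the zinc finger gene pqm-1 at -1.75 ± 0.40, rict-1, which encodes the Rictor subunit of the TORC2 kinase complex, at 0.95 ± 0.49, and the SMAD gene sma-4 at -0.82 ± 0.15 (SD, n = 3 each). The gene rict-1 is also among the genes nearest to vit-2, with 1.49, 0.53 and 0.84 on replicates 1 to 3.

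In the same list, the TGF-beta ligand gene dbl-1 stood at -0.75 ± 0.05 and the SMAD gene sma-3 of its pathway at -0.71 ± 0.23 (SD, n = 3 each; adjusted p of 0.00187 and 0.00457 by limma). The intestinal GATA factor gene elt-2 was at -0.43 ± 0.09 (adjusted p = 0.0249, limma), a call that ended without replicate 2 (adjusted p = 0.138) and without replicate 3 (adjusted p = 0.157). The homeobox genes unc-62 and ceh-60, whose products activate vitellogenin genes in the adult intestine, did not pass, at -0.05 ± 0.04 and -0.15 ± 0.05 (adjusted p of 0.750 and 0.358 by limma). The ratios of unc-62 varied less between arrays than those of any of the 4 yolk genes.

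Genes of lipoprotein assembly and of export from the endoplasmic reticulum were on the higher side. Of 13 measured, 7 were higher, none was called lower (count 0) and 6 did not pass. The share called higher was 53.8%, beside 20.9% of all genes called higher and 44.4% called in either direction. Medians were 0.70, 0.60 and 0.67 on replicates 1 to 3. The lipid transfer gene dsc-4, which encodes the large subunit of the microsomal triglyceride transfer protein, stood at 0.85 ± 0.12 (adjusted p = 0.00129, limma). Its values of 0.70, 0.91 and 0.93 were close together, in contrast to those of vit-2. The members with the largest ratios were the chaperone gene hsp-4 at 1.20 ± 0.17, the protein disulphide isomerase gene pdi-1 at 1.08 ± 0.43 and the vesicle coat gene sec-24.1 at 1.01 ± 0.09 (SD, n = 3 each). The cargo receptor gene sft-4, whose product takes part in the export of yolk protein, did not pass at 0.20 ± 0.24 (adjusted p = 0.282, limma). These genes act in many secreting cells, and the tissue behind their ratios was not tested.

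Uptake of yolk was represented by 17 measured genes of clathrin-mediated endocytosis, recycling and oocyte polarity. Of these, 7 were higher, 1 was lower and 9 did not pass, beside 20.9% of all genes called higher and 23.5% called lower. The share called in either direction was 47.1%, near the 44.4% of all genes. Medians were 0.20, 0.08 and 0.25 on replicates 1 to 3, and 0.03 over the mean ratios. Without replicate 2, 5 were called, and without replicate 3, 3 were called. Calls over all 15092 genes fell too, from 6698 to 5927 without replicate 2 and to 4954 without replicate 3. The members with the largest ratios were the polarity gene par-3 at 1.58 ± 0.22, the endosomal J-domain gene rme-8 at 1.30 ± 0.10 and the clathrin heavy chain gene chc-1 at 1.17 ± 0.33 (SD, n = 3 each). The single lower member was rme-4, a regulator of receptor recycling in oocytes, at -0.47 ± 0.10 (adjusted p = 0.0164, and 0.153 without replicate 3, limma), and it stood at -0.31 with centring by runs of rows (adjusted p = 0.0646). The RAB-5 exchange factor gene rme-6 stood at 0.55 ± 0.29 (adjusted p = 0.0194, and 0.149 without replicate 3, limma). None of the endocytosis genes reached the ratio of rme-2.

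The other genes with LDL receptor repeats did not follow rme-2 as a group. Of the 4 genes, 1 was called higher and 2 lower, and 1 did not pass, beside 20.9% of all genes called higher and 23.5% called lower, with medians of -0.60, -0.20 and -0.05 on replicates 1 to 3. The gene egg-2 stood at 0.99 ± 0.09, whereas its close relative egg-1 stood at -0.51 ± 0.11 (SD, n = 3 each, adjusted p of 0.000596 and 0.0123 by limma). Neither egg-1 nor egg-2 was in the oocyte marker list. The call of egg-1 ended without replicate 2 (adjusted p = 0.0828) and without replicate 3 (adjusted p = 0.0619). The epidermal receptor gene lrp-1, a megalin relative, was at -1.26 ± 0.58 (adjusted p = 0.00227, limma), with all 3 arrays below 0.

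**Figure D4:**
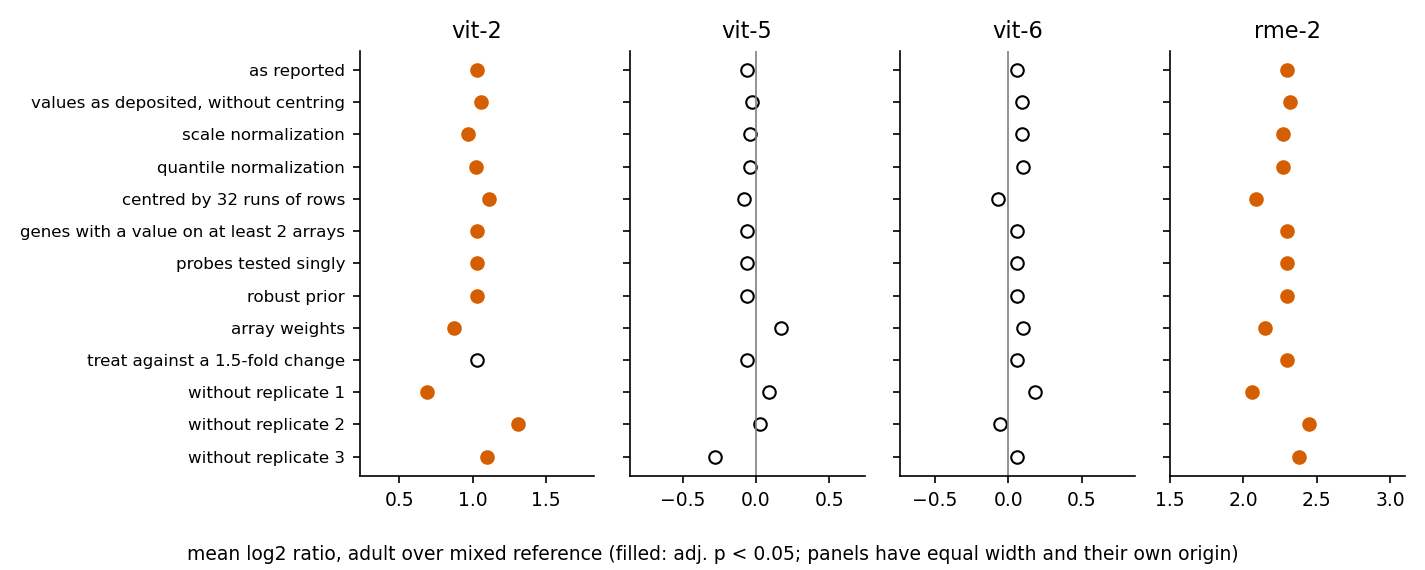
The mean log2 ratio of adult over mixed reference (horizontal axes, of equal width with their own origin) of each yolk gene is plotted as reported and under 12 alternatives, filled where the adjusted p was under 0.05. The rme-2 points stay filled between 2.06 and 2.45, the vit-2 points run from 0.69 to 1.31 with 1 open point, and the vit-5 and vit-6 points are open and lie within 0.28 of 0.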

How the data were processed

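The authors deposited 1 log2 ratio per probe for each of the 3 arrays, with the channels as the labels give them; the sources used here do not give dyes, scanning, background treatment or normalization. The scale follows from the values: 100% of the 58013 values within 2 of 0 are the log2 of a ratio with 3 decimals (tolerance 0.005 thousandths), against 0.974% as natural logs and 1.08% as log10. Deposited array medians were 0.06, 0.00 and 0.02, and how the values were centred is unknown.

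Probes were named from GEO's platform annotation (15655 with 1 symbol, 198 with several, 4147 with none; 15569 of the first matched the WBcel235 RefSeq table). Arrays were centred on their medians and probes of a gene averaged; each yolk gene had 1 probe. The 15092 genes with 3 values were tested against 0 with limma 3.58.1 (lmFit, eBayes; prior df 5.3, residual df 2) in R 4.3.3, adjusted by Benjamini-Hochberg, threshold 0.05. The reference's own spread does not enter. The code was tested on simulated data.

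The members and lists were chosen with earlier results of these data known. Named genes are the members, the 3 of each of 9 lists with the largest absolute mean ratio and the 3 nearest to each member; dsc-4, sft-4, unc-62, ceh-60, elt-2, dbl-1, sma-3, rme-4, rme-6, pho-1, vha-6, cpg-2 and oma-1 were added for their role after values were seen. A planned promoter motif search was not run, as no promoter sequence was used. Alternatives were other centrings, normalizations, filters, priors, weights, a 1.5-fold threshold and leaving out each array.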

Additional observations from a re-analysis of the deposited data

How the results depend on the processing

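Leaving out 1 array gave 4954 to 7097 called genes of the 6698 reported, and kept the calls of rme-2 and vit-2. Over the same settings vit-5 ran from -0.28 to 0.09, vit-6 from -0.06 to 0.18 and the difference vit-6 minus vit-5 from -0.09 to 0.34, so their signs turned. With array weights (0.372 for replicate 1), limma put vit-5 at 0.17 (adjusted p = 0.36), and centring by 32 runs of rows put vit-6 at -0.07 (adjusted p = 0.686). The test against a 1.5-fold change, a stricter question, called 2076 genes, ended the call of vit-2 (1.03, adjusted p = 0.213) and left 28 of the 70 called genes of the lists. By list it called 13 in place of 15 oocyte markers, 5 in place of 7 moulting markers and 3 in place of 15 intestine markers. It called 1 in place of 3 other LDL receptor repeat genes, 0 in place of 4 sperm markers and 0 in place of 1 yolk protein gene. It also called 1 in place of 12 control genes, 3 in place of 8 endocytosis genes and 2 in place of 7 assembly and export genes. With the sign of every ratio turned, the means are -1.03 for vit-2, 0.06 for vit-5, -0.06 for vit-6 and -2.30 for rme-2.

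The other named genes were recomputed too, a choice made after seeing the data. Those whose sign turned are the neighbours of vit-5 and vit-6, all near 0 and not called. As deposited ptr-24 stood at 0.01; with 32 runs ptr-24 stood at 0.17 and srt-13 at 0.14; with array weights ptr-24, bath-9 and srt-13 stood at 0.16, 0.07 and 0.11. Leaving out 1 array gave -0.20 to 0.12 for ptr-24, -0.27 to 0.01 for bath-9, -0.21 to 0.06 for srt-13, -0.04 to 0.19 for C40A11.8, -0.02 to 0.20 for etfm-1 and -0.05 to 0.16 for C10A4.4. The 1.5-fold test ended 17 calls among these genes. Centring by 32 runs ended the call of rme-4 (-0.31, adjusted p = 0.0646) and gave one to spe-11 (-0.70, adjusted p = 0.047), and array weights gave one to cpg-2 (0.33, adjusted p = 0.038). Without replicate 1, 1 call was gained (cpg-2); without replicate 2, 1 was gained (spe-11) and 2 were lost (egg-1, elt-2); without replicate 3, 1 was gained (spe-11) and 4 were lost (egg-1, elt-2, rme-4, rme-6). The cause of these changes was not tested. No paired analysis was possible because there is 1 group of samples, each set against the same kind of reference.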
